A study of Rattus norvegicus with 46 samples.

Results

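The genes described here encode hepatokines and stress hormones, proteins that the liver or stressed cells release into the blood. They were chosen by name from a list of 9 symbols (Fgf21, Gdf15, Inhbe, Lect2, Angptl4, Angptl8, Angptl6, Fetub and Ahsg). The count table held 1 row each for 8 of the 9, of 32552 genes in all. Ahsg matched no row by symbol and was not analysed here. Bulk RNA was sequenced from liver and quadriceps of diet-induced obese rats of WT genotype. Vehicle rats were the controls, the weight-matched rats ate a restricted ration that brought them to a comparable body weight, and the third group received CagriSema, which joins the amylin analog cagrilintide with the GLP-1 receptor agonist semaglutide. The liver design names 20 days of treatment. There were 8 vehicle, 8 weight-matched and 7 CagriSema livers, and 7 vehicle, 8 weight-matched and 8 CagriSema muscles. The labels give no sex, no age and no statement that each library was a separate rat, so p-values measure the spread between libraries, which may be technical.

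FGF21 is induced by fasting, by sugar and by the integrated stress response, and it acts through FGF receptors with the co-receptor beta-klotho. GDF15 is released by stressed cells and lowers food intake through the hindbrain receptor GFRAL. Inhbe encodes the subunit of activin E, which acts on fat tissue through the receptor ALK7, and ANGPTL4 and ANGPTL8 restrain lipoprotein lipase, the enzyme that frees fatty acids from circulating triglyceride.

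Promoter sequences are shown for 4 genes, because Fgf21, Angptl8 and Inhbe shared a run of letters. In part of the fits below, Fgf21 and Angptl8 varied together between livers and Lect2 differed between groups. Each run covers 250 bases before to 50 bases after the annotated start, read 5′ to 3′ on the gene's own strand, from RefSeq on build GRCr8. Entries were matched for 7 of the 8 genes with counts. Capitals mark motif matches, and a match is a run of letters and no measured binding site. The C/EBP-ATF element TGATGNAAT, searched on both strands, was present in 1.09% of 33469 rat promoters of the same length. Fgf21 (chr1:105221327-105221626, minus strand) held it in reverse at position -144 from the start, and held an E-box, CACGTG, at -54. Angptl8 (chr8:28652305-28652604, plus strand) held the element forward at -118. The shorter core TGATGCAA, which overlaps the element and was chosen after these sequences were seen, was present in 0.795% of promoters. Inhbe (chr7:65064470-65064769, minus strand) held that core in reverse at -228. Lect2 (chr17:8049784-8050083, plus strand) held none of the letters searched.
Fgf21: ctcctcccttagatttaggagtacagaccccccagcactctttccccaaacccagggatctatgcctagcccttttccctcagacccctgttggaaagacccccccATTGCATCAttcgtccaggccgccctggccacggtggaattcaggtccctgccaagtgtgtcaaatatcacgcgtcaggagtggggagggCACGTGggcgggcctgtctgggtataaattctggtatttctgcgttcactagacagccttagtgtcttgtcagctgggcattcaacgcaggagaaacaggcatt
Angptl8: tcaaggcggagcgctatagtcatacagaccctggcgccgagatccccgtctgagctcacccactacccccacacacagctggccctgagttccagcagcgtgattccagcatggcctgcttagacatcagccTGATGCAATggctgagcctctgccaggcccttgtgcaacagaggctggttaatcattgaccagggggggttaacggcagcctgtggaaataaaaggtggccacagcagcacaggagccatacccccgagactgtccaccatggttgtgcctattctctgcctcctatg
Inhbe: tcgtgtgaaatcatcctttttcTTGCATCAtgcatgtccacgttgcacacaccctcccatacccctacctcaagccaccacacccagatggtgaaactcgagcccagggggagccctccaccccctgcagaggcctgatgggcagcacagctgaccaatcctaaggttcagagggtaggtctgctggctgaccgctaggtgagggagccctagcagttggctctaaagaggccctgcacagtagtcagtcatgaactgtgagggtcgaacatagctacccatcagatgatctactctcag
Lect2: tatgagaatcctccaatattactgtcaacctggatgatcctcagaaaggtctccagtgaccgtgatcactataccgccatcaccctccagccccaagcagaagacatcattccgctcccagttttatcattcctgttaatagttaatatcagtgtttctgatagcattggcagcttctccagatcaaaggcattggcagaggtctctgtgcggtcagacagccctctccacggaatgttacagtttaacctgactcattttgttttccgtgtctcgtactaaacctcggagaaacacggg
The E-box letters were present in 6.42% of all promoters. The CRE letters TGACGTCA (1.83%) and the DR1 PPAR element, 2 AGGTCA repeats 1 base apart (0.0538%), were in none of the promoters matched to the 8 genes.

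Libraries were sequenced to 9888858 to 15948219 counts in liver and 11462369 to 16525274 in quadriceps. Levels are given as CPM, counts scaled to a common library size after TMM normalisation, which corrects for a few abundant RNAs. A count of 0 allows up to 3 counts, equal to 0.182 to 0.364 CPM in a liver and 0.183 to 0.255 CPM in a muscle. Vehicle livers 4 and 6 stood apart, so the hormone genes and the gene counts in liver are given with and without both, and other genes where a call changed or the value moved. In vehicle library 4, ribosomal protein genes took 1.84% of counts and the TMM factor was 0.7416. In vehicle library 6, mitochondrial genes took 9.29% of counts and the factor was 0.8765. The other 21 livers ran from 0.638% to 0.928% for ribosomal protein genes, from 4.09% to 5.81% for mitochondrial genes and from 0.9463 to 1.071 for the factor. Among vehicle livers, library 4 also had the highest summed hepatocyte markers (213000 CPM, group median 164000), blood cell markers (770 CPM, median 211) and pancreas and gut markers (42.7 CPM, median 8.59). It was highest too for macrophage (807 CPM, median 558), cholangiocyte (49.4 CPM, median 19.4) and adipocyte markers (107 CPM, median 65.9). Muscle fibre, stellate cell and endothelium markers were highest in libraries 1, 5 and 7.

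None of the 8 hepatokine genes passed the test in liver with all libraries. That was 0 of 8 with weight matching against vehicle, where 7.02% of 12702 genes tested passed, 0 of 8 with CagriSema against vehicle, where 0.354% passed, and 0 of 8 with CagriSema against weight matching, where 0.535% passed. Genes were tested with edgeR's quasi-likelihood F test and called at a Benjamini-Hochberg adjusted p under 0.05. At an unadjusted p under 0.05 there were 1 (Inhbe), 0 and 2 (Inhbe and Lect2) of the 8 in these comparisons, where 24.4%, 17.8% and 10.6% of all genes had such a p, and DESeq2 called 1 (Inhbe), 0 and 0 of the 8, where it called 9.15%, 2.05% and 1.44% of all genes. The median log2 fold change of the 8 genes was 0.0018 with weight matching, against -0.014 over all genes tested. It was -0.049 with CagriSema against vehicle, against -0.016 over all genes, and 0.11 with CagriSema against weight matching, against 0.00030. Without vehicle libraries 4 and 6 the median of the 8 genes was 0.25, 0.16 and 0.11, against 0.0065, -0.00026 and 0.00035 over all genes. Scaling by library totals alone called none of the 8, but moved the share of all called genes that were higher from 35.4% to 66.6% with weight matching and from 31.1% to 88.7% with CagriSema against vehicle. Without vehicle libraries 4 and 6, 2 of 8 passed with weight matching against vehicle (Fgf21 and Lect2, both higher), where 8.16% of 12762 genes passed and 3.59% were higher. In that fit 0 of 8 passed with CagriSema against vehicle, where 0.141% passed, and 1 of 8 with CagriSema against weight matching (Lect2, lower), where 4.62% passed and 2.5% were lower.

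Fgf21 (ENSRNOG00000020990) was a low-count transcript, with 13 to 58 counts per liver. In vehicle livers it ran from 1.14 CPM to 6.31 CPM with a median of 1.94. The highest values were library 4, at 6.31 CPM, and library 6, at 4.26 CPM, while the other 6 vehicle livers lay between 1.14 and 2.20 CPM. Weight-matched livers ran from 1.94 to 3.84 CPM with a median of 2.70, and CagriSema livers from 1.82 to 4.28 CPM with a median of 2.37. All 3 groups overlapped, and the 2 treated groups lay inside the vehicle range. With all libraries the log2 fold change of weight matching against vehicle was 0.12 ± 0.29 (SE, adjusted p = 0.829). Without vehicle libraries 4 and 6, Fgf21 rose by 0.70 ± 0.21 (adjusted p = 0.0456), and 7 of 8 weight-matched livers lay above all 6 remaining vehicle livers. CagriSema against vehicle was 0.20 ± 0.30 (adjusted p = 0.743) with all libraries and 0.78 ± 0.22 (adjusted p = 0.107) without the 2. These comparisons share the vehicle livers, and 4 of 7 CagriSema livers lay above the 6 that remained. Leaving out any 1 library gave adjusted p-values of 0.308 to 0.995 with weight matching. CagriSema differed from weight matching by 0.08 ± 0.30 (adjusted p = 0.987), an interval of -0.51 to 0.68 at 2 SE, and by 0.081 ± 0.19 (adjusted p = 0.869) without the 2. In a bulk sample, fewer cells of a type and less RNA per cell cannot be told apart.

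**Figure D1:**
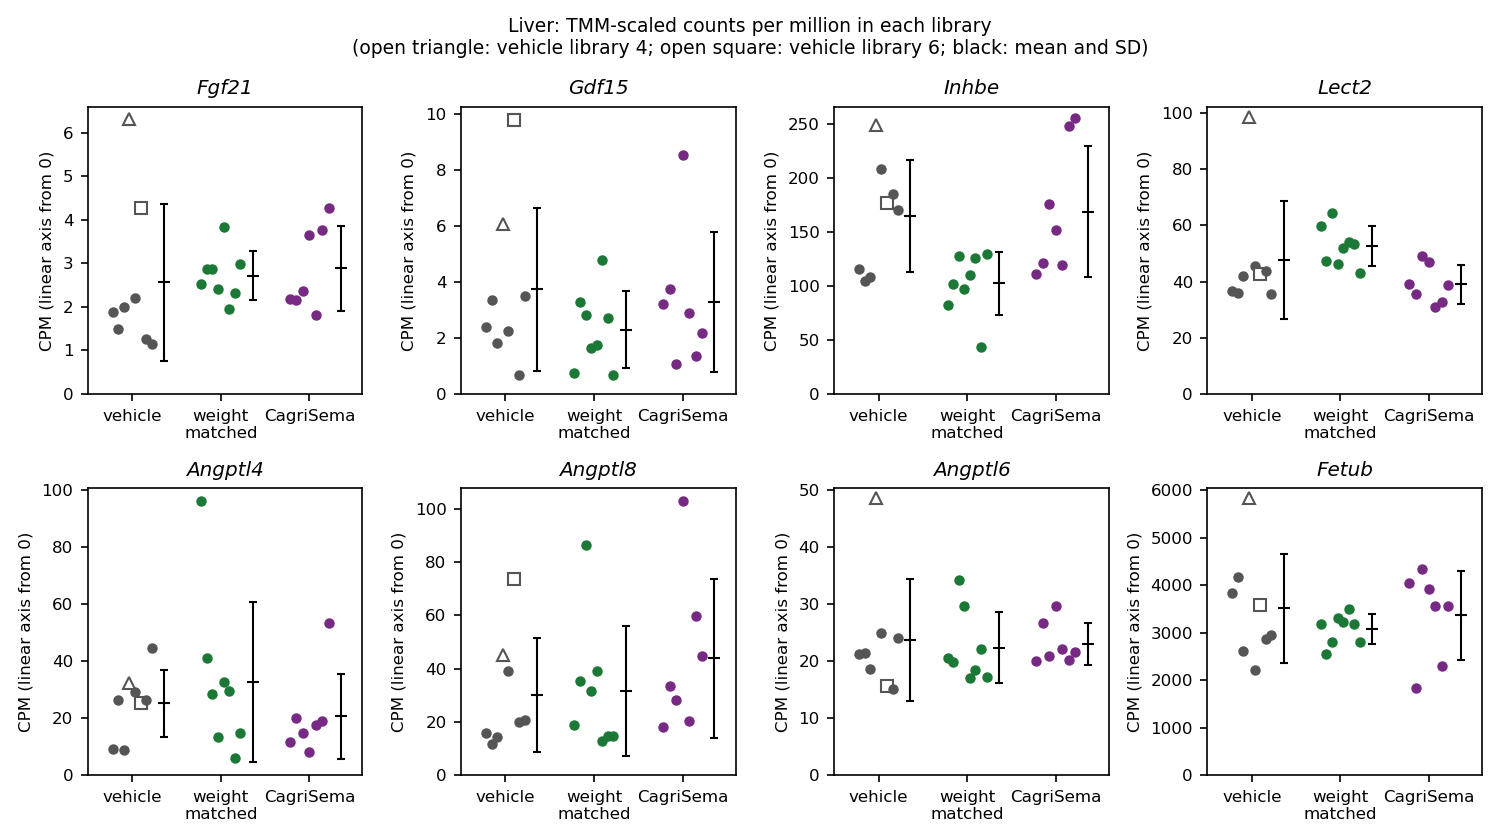
CPM of the 8 hepatokine genes in each of 23 livers, on linear axes that start at 0, with group mean and SD in black. The open triangle is vehicle library 4 and the open square vehicle library 6. Library 4 holds the highest vehicle value of Fgf21 (6.31 CPM), Inhbe (249 CPM), Lect2 (98.5 CPM), Angptl6 (48.6 CPM) and Fetub (5850 CPM).

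Gdf15 (ENSRNOG00000019661) varied widely within each group. It ran from 0.678 to 9.81 CPM in vehicle livers (median 2.88), from 0.67 to 4.80 CPM with weight matching (median 2.23) and from 1.09 to 8.56 CPM with CagriSema (median 2.89). The 2 highest vehicle values were again library 6, at 9.81 CPM, and library 4, at 6.07 CPM. The groups overlapped throughout. Weight matching against vehicle gave -0.70 ± 0.47 (adjusted p = 0.363) with all libraries and -0.058 ± 0.47 (adjusted p = 0.962) without the 2. CagriSema against vehicle gave -0.17 ± 0.48 (adjusted p = 0.868) and then 0.48 ± 0.47 (adjusted p = 0.706), so its sign turned. CagriSema against weight matching gave 0.53 ± 0.49 (adjusted p = 0.843) with all libraries and 0.54 ± 0.44 (adjusted p = 0.538) without the 2. The interval of weight matching against vehicle with all libraries was -1.65 to 0.24 at 2 SE.

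Inhbe (ENSRNOG00000007601) had its lowest values in the weight-matched group. Vehicle livers ran from 105 to 249 CPM (median 174), weight-matched livers from 43.6 to 130 CPM (median 106) and CagriSema livers from 111 to 255 CPM (median 152). No weight-matched liver reached the vehicle median, and 4 of 8 lay below every vehicle liver. All 7 CagriSema livers lay above the weight-matched median, and 4 of 7 above every weight-matched liver. The log2 fold change of weight matching against vehicle was -0.68 ± 0.23 (unadjusted p = 0.00589, adjusted p = 0.0680), and it did not pass the test. It was -0.53 ± 0.25 (adjusted p = 0.202) without vehicle libraries 4 and 6. It passed in DESeq2 (adjusted p = 0.0355) and, in edgeR, without vehicle library 2 (-0.76, adjusted p = 0.0450). Over all leave-one-out fits its adjusted p ran from 0.0450 to 0.130. CagriSema against weight matching was 0.72 ± 0.23 (unadjusted p = 0.00501, adjusted p = 0.187), and 0.72 ± 0.24 (adjusted p = 0.0861) without the 2 vehicle livers. CagriSema against vehicle was 0.036 ± 0.23 (adjusted p = 0.945), and 0.19 ± 0.26 (adjusted p = 0.809) without the 2.

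Inhbc (ENSRNOG00000007700), which encodes the closely related activin C subunit made by the liver, was on the list of activin genes. Its level was 108 ± 25.8 CPM (SD, n = 8) in vehicle, 72.5 ± 14.8 CPM (n = 8) in weight-matched and 97.3 ± 9.06 CPM (n = 7) in CagriSema livers. Inhbc fell with weight matching against vehicle by 0.58 ± 0.13 in log2 units (adjusted p = 0.0112), and by 0.51 ± 0.13 (adjusted p = 0.0144) without libraries 4 and 6. CagriSema against weight matching gave 0.42 ± 0.14 (adjusted p = 0.187) with all libraries, and 0.42 ± 0.12 (adjusted p = 0.0479) without the 2. Of 14 activin family genes tested with weight matching, 2 were higher and 2 lower, where 7.02% of all genes passed. The higher ones were Tgfbr3 (0.64 ± 0.14), a co-receptor that binds inhibin, and Smad7 (0.76 ± 0.20), an inhibitor of the pathway. The lower ones were Inhbc and the signal transducer Smad2 (-0.33 ± 0.081). The call of Smad7 was lost without weight-matched library 27 (adjusted p = 0.0684). None of the 14 passed with CagriSema against vehicle or against weight matching with all livers, where 0.354% and 0.535% of all genes passed. Leaving out libraries 4 and 6 gave 3 higher and 2 lower with weight matching (8.16% of all genes passed). With CagriSema 0 then passed against vehicle (0.141% of all genes) and 1, Inhbc, against weight matching (4.62%).

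Lect2 (ENSRNOG00000012189) encodes a chemokine-like protein secreted by hepatocytes. Vehicle livers ran from 35.4 to 98.5 CPM with a median of 42.3, and library 4 alone gave the highest value, with 45.7 CPM next. Weight-matched livers ran from 42.9 to 64.3 CPM (median 52.7) and CagriSema livers from 30.8 to 49.1 CPM (median 38.7). All 8 weight-matched livers lay above the vehicle median. In 5 of 7 CagriSema livers Lect2 was below every weight-matched liver. With all libraries, weight matching against vehicle gave 0.15 ± 0.17 (adjusted p = 0.613) and CagriSema against weight matching gave -0.43 ± 0.18 (unadjusted p = 0.0232, adjusted p = 0.338). Without vehicle libraries 4 and 6, Lect2 rose with weight matching against vehicle by 0.40 ± 0.11 (adjusted p = 0.0213), and 7 of 8 weight-matched livers lay above all 6 vehicle livers. In that fit Lect2 was lower with CagriSema than with weight matching by -0.43 ± 0.10 (adjusted p = 0.0180). Leaving out library 4 alone gave the same calls, at 0.39 (adjusted p = 0.0168) and -0.43 (adjusted p = 0.0227). A fit of the weight-matched and CagriSema livers alone, which holds no vehicle liver, gave -0.43 (adjusted p = 0.0297). Over the 23 leave-one-out fits the adjusted p of CagriSema against weight matching ran from 0.0227 to 0.556. That of weight matching against vehicle ran from 0.0168 to 0.764. In both comparisons only the fit without vehicle library 4 called Lect2. CagriSema against vehicle was -0.28 ± 0.18 (adjusted p = 0.383) with all libraries and -0.029 ± 0.11 (adjusted p = 0.938) without the 2. Hepatocyte marker sums ran from 127000 to 155000 CPM with weight matching (median 148000) and from 120000 to 149000 CPM with CagriSema (median 129000). In vehicle livers they ran from 138000 to 213000 CPM (median 164000). The part of these sums in the result was not tested.

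**Figure D2:**
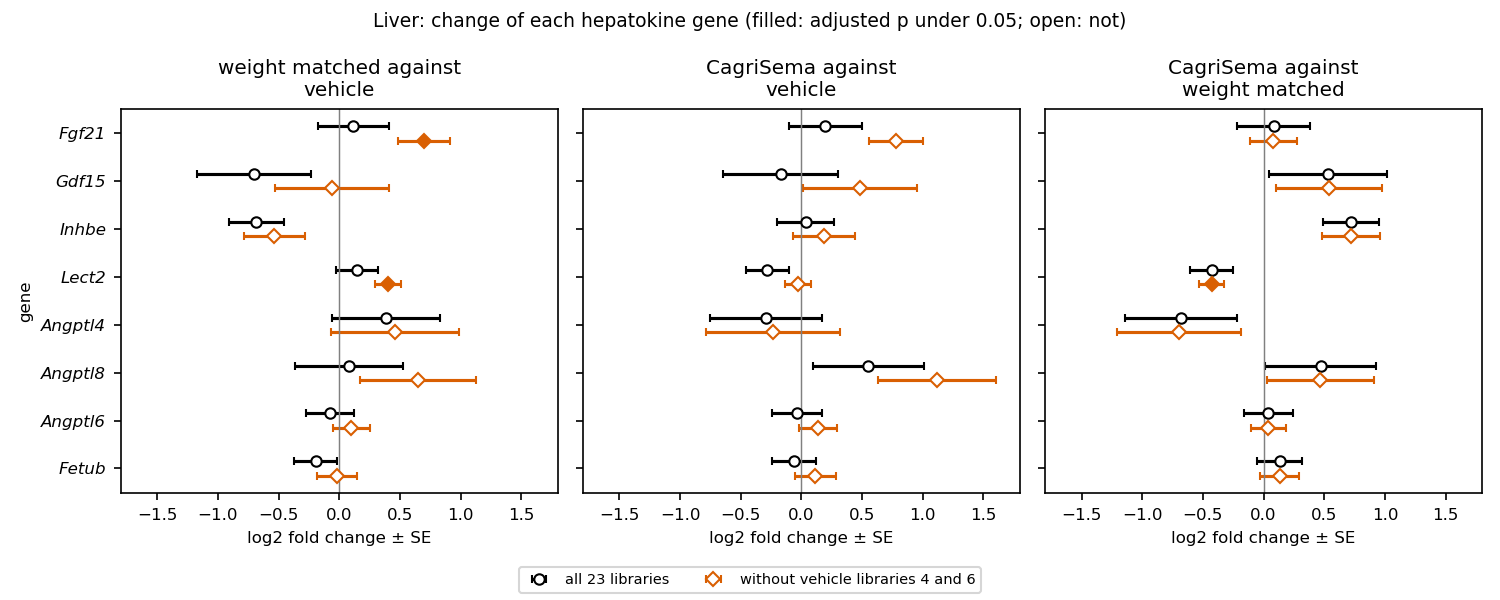
Log2 fold change ± SE of each gene in the 3 liver comparisons, with all 23 livers (circles) and without vehicle libraries 4 and 6 (diamonds). Filled symbols passed the test, which were Fgf21 (0.70) and Lect2 (0.40) with weight matching against vehicle and Lect2 (-0.43) with CagriSema against weight matching, all without the 2 libraries.

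Of the lipase inhibitors, Angptl4 (ENSRNOG00000007545), known to rise in fasting, ran from 8.74 to 44.6 CPM in vehicle livers (median 26.2), from 6.04 to 96.1 CPM with weight matching (median 28.9) and from 8.11 to 53.2 CPM with CagriSema (median 17.6). The highest weight-matched liver, library 25, stood at 96.1 CPM with the next at 41.2. The highest CagriSema liver, library 40, stood at 53.2 CPM with the next at 20.1. In 6 of 7 CagriSema livers Angptl4 was below the weight-matched median, but the groups overlapped. CagriSema against weight matching gave -0.68 ± 0.46 (adjusted p = 0.708), and weight matching against vehicle 0.39 ± 0.44 (adjusted p = 0.610). Without weight-matched library 25 these were -0.21 and -0.081, and the first was -1.11 without CagriSema library 40. CagriSema against vehicle was -0.29 ± 0.46 (adjusted p = 0.754), and -0.72 without library 40. The 3 values, in the order given, became -0.69 ± 0.51 (adjusted p = 0.493), 0.46 ± 0.53 (adjusted p = 0.659) and -0.23 ± 0.55 (adjusted p = 0.901) without vehicle libraries 4 and 6.

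Angptl8 (ENSRNOG00000011490), known to be induced by feeding and insulin, ran from 11.6 to 73.8 CPM in vehicle livers (median 20.3). It ran from 12.6 to 86.4 CPM with weight matching (median 25.1) and from 18.1 to 103 CPM with CagriSema (median 33.4). The highest vehicle values were library 6, at 73.8 CPM, and library 4, at 45.1 CPM. CagriSema against vehicle was 0.55 ± 0.46 (adjusted p = 0.512) with all libraries and 1.12 ± 0.49 (unadjusted p = 0.0351, adjusted p = 0.325) without the 2. All 7 CagriSema livers lay above the median of the remaining 6 vehicle livers, and 3 of 7 above all of them. Weight matching against vehicle was 0.081 ± 0.44 (adjusted p = 0.924) and then 0.65 ± 0.48 (adjusted p = 0.454). The difference of CagriSema from weight matching was 0.47 ± 0.46 (adjusted p = 0.858) with all libraries and 0.47 ± 0.44 (adjusted p = 0.609) without the 2. Among the 13 genes tested of the lipoprotein lipase system, 1 was higher and 1 lower with weight matching against vehicle. Of all genes 7.02% passed there. Pcsk6, a proprotein convertase, rose by 0.48 ± 0.14, and Lipc, hepatic lipase, fell by 0.54 ± 0.093. The call of Pcsk6 was lost in 6 of 23 leave-one-out fits (adjusted p up to 0.0744), and that of Lipc in none. Without libraries 4 and 6, 1 was higher and 2 lower with weight matching. None of the 13 passed in the CagriSema comparisons, with or without those libraries, where 0.141% to 4.62% of all genes passed.

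Angptl6 (ENSRNOG00000020603), an angiopoietin-like growth factor, and Fetub (ENSRNOG00000001806), the protease inhibitor fetuin-B, had small estimated differences between groups. Angptl6 ran from 15.1 to 48.6 CPM in vehicle livers, the highest being library 4, from 17.0 to 34.2 CPM with weight matching and from 20.1 to 29.6 CPM with CagriSema. Its log2 fold changes were -0.077 ± 0.20, -0.037 ± 0.20 and 0.040 ± 0.20 in the 3 comparisons, and 0.098 ± 0.15, 0.14 ± 0.16 and 0.039 ± 0.15 without libraries 4 and 6. Fetub ran from 2220 to 5850 CPM, from 2550 to 3510 CPM and from 1840 to 4340 CPM, with fold changes of -0.19 ± 0.18, -0.062 ± 0.18 and 0.13 ± 0.18, and -0.016 ± 0.17, 0.12 ± 0.17 and 0.13 ± 0.16 without the 2. The spread of Fetub was 316 CPM (SD) with weight matching and 939 CPM with CagriSema. Of the CagriSema livers 5 of 7 lay above and 2 of 7 below every weight-matched liver, so the group split around the narrower weight-matched range.

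Genes of the pathways known to control these hormones were counted in the same fits. With weight matching against vehicle, 7.02% of all genes passed. Of 26 genes of the integrated stress response tested, 2 were higher and 4 lower there. Phgdh, the first enzyme of serine synthesis, rose by 2.64 ± 0.63 (adjusted p = 0.0142). Atf5, a stress transcription factor, fell by 1.05 ± 0.18 (adjusted p = 0.00153), and Cth, an enzyme of cysteine synthesis, by 1.09 ± 0.26 (adjusted p = 0.0129). Aldh1l2, a mitochondrial folate enzyme, fell by 0.82 ± 0.21 (adjusted p = 0.0209). Without libraries 4 and 6 Cth no longer passed (-0.69, adjusted p = 0.0663). None of the 26 passed with CagriSema with all livers, where 0.354% of all genes passed against vehicle and 0.535% against weight matching. Without libraries 4 and 6, Atf5 was higher with CagriSema than with weight matching (0.67 ± 0.17, adjusted p = 0.0318). It was the 1 gene of the 26 that passed there, where 4.62% of all genes passed. In that fit 0 passed with CagriSema against vehicle (0.141% of all genes), and 1 was higher and 3 lower with weight matching (8.16%).

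The list of PPAR-alpha targets held mostly genes that fasting turns on for fatty acid use, but also Fbp2 and Ctnnbl1. With weight matching, where 7.02% of all genes passed (316 higher and 576 lower), none of the 19 tested was higher and 2 were lower. These were Fabp1, a fatty acid binding protein, at -1.02 ± 0.24, and Cyp4a1, a fatty acid hydroxylase, at -0.86 ± 0.21. Without libraries 4 and 6 the same 2 were lower, with Fabp1 at -0.49 ± 0.12, and none of the 19 passed with CagriSema in either fit. Of 13 targets of the sugar sensor ChREBP, 2 were higher and 3 lower. Txnip, a regulator of glucose uptake, rose by 0.86 ± 0.14, and Pnpla3, a lipid droplet protein, fell by 6.15 ± 0.91, with -3.89 ± 0.86 without the 2 livers. Of 15 insulin, LXR and SREBP-1c targets, none was higher and 6 were lower, among them the desaturase Scd (-3.24 ± 0.51) and Insig2 (-1.05 ± 0.16), which holds back SREBP. With CagriSema against vehicle, Pck1, the gluconeogenic enzyme, fell by 0.75 ± 0.14 (adjusted p = 0.0433), a call that held in 15 of 23 leave-one-out fits. It was the only gene of these 3 lists that passed there, where 0.354% of all genes passed. With CagriSema against weight matching, Pnpla3 (4.35 ± 0.94, adjusted p = 0.0474) and Acly, which supplies acetyl-CoA for fat synthesis (1.41 ± 0.30, adjusted p = 0.0273), were higher. These calls held in 6 and 16 of 23 leave-one-out fits, with adjusted p up to 0.180 and 0.0938, each without CagriSema library 39. None of the 15 insulin, LXR and SREBP-1c targets passed in that comparison with all livers, where 0.535% of all genes passed. Without vehicle libraries 4 and 6, where 4.62% of all genes passed, 4 of the 15 were higher and 1 lower, at the same estimates with smaller errors. The higher ones included Thrsp, a lipogenic nuclear protein (0.99 ± 0.12, adjusted p = 0.000179), and the fatty acid synthesis enzymes Acaca and Fasn, and the lower one was Pck1 (-0.55 ± 0.14, adjusted p = 0.0245). With all livers the adjusted p-values of Thrsp and Pck1 were 0.107 and 0.0765. With weight matching against vehicle, leaving out libraries 4 and 6 gave 0 higher and 5 lower of these 15. Of the 13 ChREBP targets it gave 1 higher and 3 lower, where 8.16% of all genes passed.

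Of 8 listed receptor and co-receptor genes for FGF21 and GDF15, 7 had a row and 4 were tested in liver. Klb, the gene of beta-klotho, matched no row by symbol. Among the 4 tested, 1 was higher and 1 lower with weight matching against vehicle, where 7.02% of all genes passed. Fgfr2 stood at 72.1 ± 16.2 CPM in vehicle, 41.4 ± 7.74 CPM in weight-matched and 45.4 ± 6.69 CPM in CagriSema livers. Fgfr2 fell with weight matching by 0.80 ± 0.13 (adjusted p = 0.00101) and with CagriSema against vehicle by 0.67 ± 0.14 (adjusted p = 0.0448). The second call was lost without libraries 4 and 6 (-0.64 ± 0.14, adjusted p = 0.0590) and held in 8 of 23 leave-one-out fits. Fgfr3 rose with weight matching by 0.67 ± 0.16 (adjusted p = 0.0152). Of 8 receptors and partners of LECT2 and the fetuins, none passed in any of the 3 comparisons with all livers. Of all genes 7.02% passed with weight matching, 0.354% with CagriSema against vehicle and 0.535% with CagriSema against weight matching. The lowest adjusted p with weight matching was that of the endothelial receptor Tek (0.43 ± 0.16, adjusted p = 0.0955). Without libraries 4 and 6, 1 of the 8, the insulin receptor substrate Irs2, was lower with CagriSema than with weight matching (-1.21 ± 0.33, adjusted p = 0.0409, against 0.145 with all livers). Leaving them out, 4.62% of all genes passed in that comparison and 8.16% with weight matching against vehicle. Of 35 other secreted liver proteins tested, 1 was higher and 3 lower with weight matching. Igfbp2, an IGF-binding protein, rose by 2.92 ± 0.53 (adjusted p = 0.00223) and was lower with CagriSema than with weight matching by -2.70 ± 0.54 (adjusted p = 0.0217), which held in 18 of 23 leave-one-out fits. Serpina6, the corticosteroid carrier of plasma, fell by 0.89 ± 0.19 with weight matching (adjusted p = 0.00620). Of the 35, 2 were higher and 2 lower with weight matching without libraries 4 and 6, among them Hamp, which encodes the iron hormone hepcidin (0.99 ± 0.22, adjusted p = 0.0111, against 0.37 and 0.454 with all livers). With CagriSema against vehicle 1 of the 35 was lower, Igfals, the carrier subunit of circulating IGF (-0.36 ± 0.076, adjusted p = 0.0449), which held in 5 of 23 leave-one-out fits, and none without libraries 4 and 6. With CagriSema against weight matching, 1 was higher and 1 lower without them, the higher one being the heme carrier Hpx (0.33 ± 0.079, adjusted p = 0.0215).

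Between livers of 1 treatment, 1 pair of the hormones varied together. Of 28 pairs of the 8 genes, tested by permutation of log2 CPM within treatments over 23 livers, 1 passed after adjustment over the 28. Fgf21 and Angptl8 had Pearson's r = 0.661 (permutation p = 0.00062, adjusted p = 0.0174) and Spearman's rho = 0.676 (permutation p = 0.00093, adjusted p = 0.026). Without the 2 livers farthest from the median of Fgf21, r was 0.602. Without vehicle libraries 4 and 6, r was 0.575 (permutation p = 0.0098) and the pair no longer passed (adjusted p = 0.193). Inhbe, whose promoter holds the same core letters, had r = 0.536 with Angptl8 (rho = 0.540) and 0.493 with Fgf21 (rho = 0.537). Both had an adjusted permutation p of 0.117 for r and 0.144 for rho. Pairs with a gene whose promoter held none of the letters searched reached similar r. The highest were 0.62 for Angptl6 and Lect2, 0.595 for Fgf21 and Lect2 and 0.526 for Angptl4 and Inhbe. Their rho was 0.144, 0.346 and 0.477. Without libraries 4 and 6 their r was 0.206, 0.163 and 0.513, against 0.5 for Inhbe with Angptl8 and 0.403 with Fgf21. The part of the shared letters in these relations was not tested. All genes of a library share its depth and scaling.

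**Figure D3:**
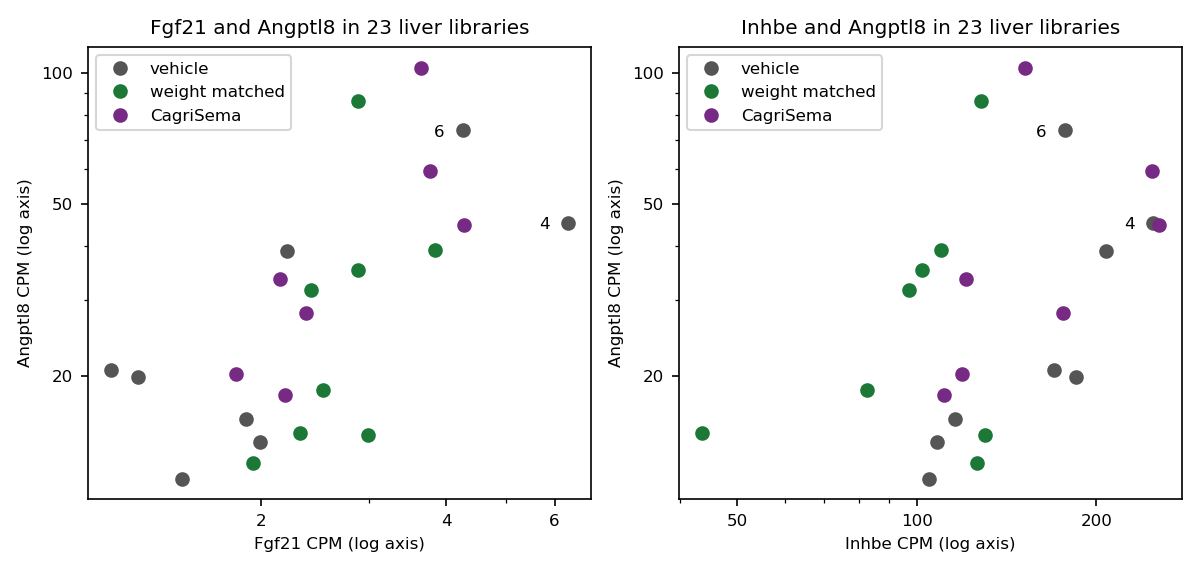
CPM of Angptl8 against Fgf21 (left) and against Inhbe (right) in 23 livers, on log axes, coloured by treatment, with vehicle libraries 4 and 6 numbered. The values plotted are not centred on treatments, whereas r (0.661 and 0.536) was computed after centring.

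The genes whose level followed each hormone most closely were taken as the 2 with the highest Spearman rho over the 23 livers, given here as a description. For Fgf21 these were Srek1 (rho = 0.857) and Slc30a3 (0.753), and for Gdf15 Procr (0.764) and Pole3 (0.764). For Inhbe they were Spryd3 (0.859) and Gpm6a (0.798), and for Lect2 Cyp2d3 (0.878) and Rps18 (0.781). Angptl8 ran with Hcn3 (0.857) and Tmem102 (0.767), and Angptl4 with Dtx2 (0.747) and Mettl17 (0.746). Angptl6 ran with Foxf1 (0.822) and Igfbp7 (0.811), and Fetub with Snrpf (0.729) and Aamp (0.679). Each of the 16 stayed among the first 20 genes for its hormone without libraries 4 and 6. That check reused 21 of the 23 livers in which the genes were picked, so it is no separate support.

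In quadriceps, Angptl4 was the only hormone gene with enough counts to be tested, and it ran in the order CagriSema, vehicle, weight matched. Vehicle muscles ran from 1.36 to 3.35 CPM with a median of 2.65, and weight-matched muscles from 1.86 to 10.5 CPM with a median of 5.36. CagriSema muscles ran from 0.650 to 6.06 CPM with a median of 0.973, and 5 of 8 lay below every vehicle and every weight-matched muscle. CagriSema library 40, at 6.06 CPM, stood apart, since the other 7 lay between 0.650 and 2.76 CPM. In 6 of 8 weight-matched muscles Angptl4 was above every vehicle muscle. With all libraries none of the differences passed, 0 of 1 in each comparison. Weight matching against vehicle was 1.19 ± 0.42 (unadjusted p = 0.00918, adjusted p = 0.120, with 2.29% of 12471 genes called), and 1.01 ± 0.47 (adjusted p = 0.396) without vehicle libraries 2 and 5. CagriSema against vehicle was -0.41 ± 0.45 (adjusted p = 0.779, with 0.0321% called). CagriSema against weight matching was -1.61 ± 0.41 (unadjusted p = 0.000771, adjusted p = 0.213, with 0.128% called), an interval of -2.43 to -0.78 at 2 SE. The neighbours in this order thus did not differ past the threshold.

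Without CagriSema library 40, its highest value in that group, Angptl4 was lower with CagriSema than with weight matching by -2.16 (adjusted p = 0.0148), where 0.0964% of genes passed. No other of the 23 leave-one-out fits called it. DESeq2 called it with all libraries (-1.61, adjusted p = 0.0274), where 0.251% of genes passed. Without library 40 and vehicle library 2, chosen after the values were seen, it was -2.16 ± 0.36 (adjusted p = 0.0201). Over the leave-one-out fits its adjusted p ran from 0.0148 to 0.408. Quadriceps library 40 also held liver transcripts, with 191 counts of Alb and 10 of Fetub, where the other CagriSema muscles held 0 to 142 counts of Alb and none of Fetub. In liver library 40, 609 counts of Angptl4 stood beside 40720 of Fetub, and in quadriceps library 40, 84 counts of Angptl4 beside 10 of Fetub. The part of liver transcripts in the Angptl4 value of that muscle was not tested. Pdk4, a mitochondrial kinase that spares glucose and is also a PPAR target, had 305 ± 125 CPM (SD, n = 7), 545 ± 307 CPM (n = 8) and 205 ± 108 CPM (n = 8) in vehicle, weight-matched and CagriSema muscles. Its difference between CagriSema and weight matching was -1.41 ± 0.35 (adjusted p = 0.213). Pdk4 was singled out after its values were seen, and the list of PPAR-alpha targets did not move with it. Among 16 PPAR-alpha targets tested in quadriceps, 1 rose with weight matching against vehicle, Fbp2, a muscle fructose bisphosphatase (0.86 ± 0.20, adjusted p = 0.0319), and none passed in the other comparisons. The call of Fbp2 held in 16 of 23 leave-one-out fits (adjusted p = 0.0881 without vehicle library 5). The median log2 fold change of the 16 targets was -0.0069 with weight matching against vehicle, with 8 above 0. With CagriSema against weight matching it was 0.076, with 9 above 0. None of the 9 genes tested of the lipoprotein lipase system passed in quadriceps in any of the 3 comparisons, and none of the 22 of the integrated stress response. Of all genes 2.29% passed there with weight matching against vehicle, 0.0321% with CagriSema against vehicle and 0.128% with CagriSema against weight matching.

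**Figure D4:**
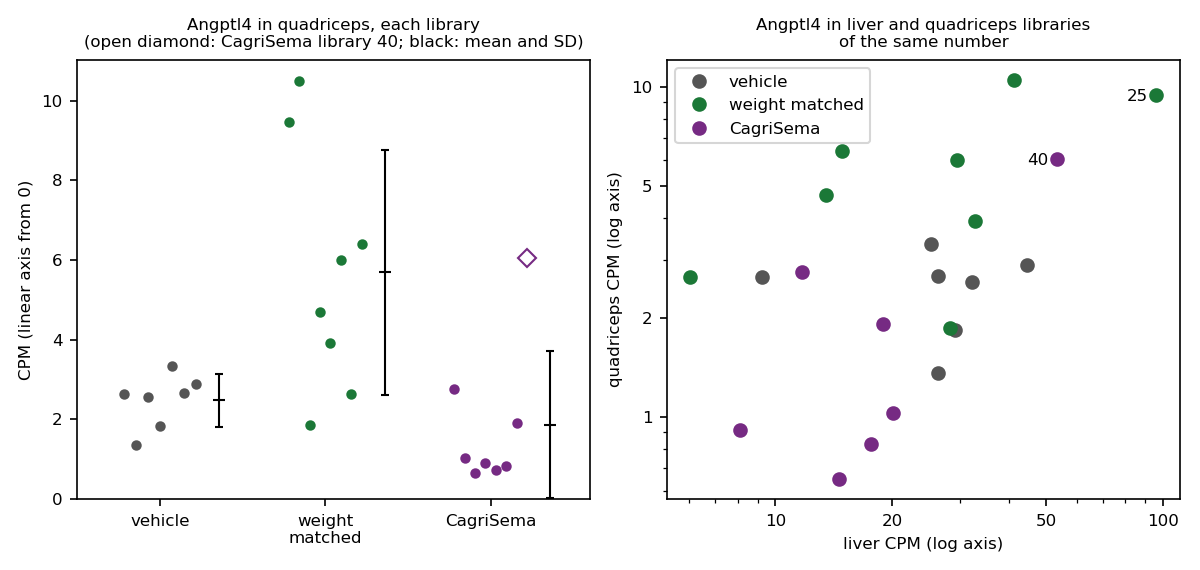
Left, Angptl4 CPM in each quadriceps library by treatment on a linear axis from 0, with mean and SD in black and CagriSema library 40 (6.06 CPM) as an open diamond. Right, Angptl4 CPM in the liver and quadriceps libraries that carry the same number, on log axes, with libraries 25 and 40 numbered.

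The change of Angptl4 was not shown to differ between the tissues. With weight matching against vehicle, the liver change minus the quadriceps change was -0.80 ± 0.64 (adjusted p = 0.534), where 2.76% of 14110 genes passed. With CagriSema against weight matching it was 0.92 ± 0.65 (adjusted p = 0.866), where 0.0213% passed. Both values took the libraries of the 2 tissues as independent. With the library number as a block they were -1.07 ± 0.41 (adjusted p = 0.173) and 1.09 ± 0.43 (adjusted p = 0.583). The other 7 hormone genes were low in quadriceps and did not pass the filter on low counts. Over the 23 muscles, Fgf21 ran from 0 to 0.249 CPM, Gdf15 from 0 to 0.565 CPM, Angptl6 from 0 to 0.541 CPM and Angptl8 from 0 to 0.426 CPM. Inhbe reached 0.144 CPM and Lect2 0.0836 CPM, and both were at 0 in all 8 CagriSema muscles. Fetub reached 1.58 CPM (22 counts) in vehicle library 2, which held 430 counts of Alb. In exact two-sided permutation tests of mean CPM, 21 in all, the lowest p was 0.0645 and the lowest adjusted p 0.800.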

How the data were processed

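Bulk RNA was sequenced in 46 libraries. Per the labels' protocols, an RNeasy kit was used for extraction and a Twist UMI system for the libraries. The submitters' processing notes name fastp 0.23.1 and STAR 2.5.2b. Not given in the sources used here are the genome build, the annotation, the counting program and the use of molecular identifiers. The authors deposited whole-number counts per gene, not normalized, with Ensembl identifiers and symbols. Columns were matched to libraries by title, and 1 column that matched none was not used.

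Groups follow the treatment labels, which name no batch. In R 4.3.3, edgeR 4.0.16 fitted the 3 groups of a tissue with 1 shared spread (filterByExpr, TMM, robust quasi-likelihood). Every adjusted p is from this test, by Benjamini-Hochberg over all genes tested with a threshold of 0.05, unless another tool is named. SE is the Wald standard error of the log2 fold change. The difference between tissues was an interaction over 46 libraries. Correlations used log2 CPM with a prior count of 2 and 100000 permutations within treatments, and genes under the filter had exact permutation tests (scipy 1.17.1). DESeq2 1.42.0 was an alternative, as were other scalings, no filter, fits of 2 groups, and leaving out libraries. The fitting steps were tested on simulated data. No 2 libraries agreed within sampling noise, since chi-square per degree of freedom was at least 13.9 in the 253 liver pairs and 5.81 in the 253 quadriceps pairs. Counting intervals and floors cover counting error only.

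The hormone genes, the 9 other gene lists and the alternatives were chosen with earlier results of these data known. Of 184 list entries, the hormone genes included, 8 matched no row and 4 matched an older symbol. The text names each hormone gene, up to 4 genes per list with the lowest p among those that passed, otherwise up to 2 as values, and the 2 genes most correlated with each hormone gene. Inhbc and Pdk4 were singled out after their values were seen.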

Additional observations from a re-analysis of the deposited data

Results flagged for a closer look

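In 36 groups of hormone gene values, a test for a single extreme library (Dixon's, at the 95% level) picked out 10. The level of that test holds for normally distributed values. These were CPM on a linear scale, in some groups near 0, so the 10 cannot be set against a chance rate. The highest value of the group stood apart in each case. In liver these were vehicle library 4 for Lect2 (98.5 CPM, next 45.7) and for Angptl6 (48.6 CPM, next 24.9). Weight-matched library 25 stood apart for Angptl4 (96.1 CPM, next 41.2) and weight-matched library 27 for Angptl8 (86.4 CPM). Among CagriSema livers, library 40 stood apart for Angptl4 (53.2 CPM, next 20.1) and library 36 for Gdf15 (8.56 CPM, next 3.75). In quadriceps, CagriSema library 40 stood apart for Angptl4 (6.06 CPM, next 2.76) and for Fetub (0.722 CPM, next 0). The other 7 CagriSema muscles held no Fetub counts, so any counts in a single muscle would stand apart there. Vehicle library 2 stood apart for Fetub (1.58 CPM, next 0.136), and vehicle library 8 for Angptl8 (0.426 CPM, next 0.183).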

How the results depend on the processing

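Of the liver and quadriceps fold changes of the hormone genes, some turned in sign under another setting, and none of these had passed the test. Scaling by library totals only, chosen after the data were seen, moved the median of all liver genes to 0.11 with weight matching and to 0.14 with CagriSema against vehicle, and that of quadriceps to -0.10 with weight matching. The share of called genes that were higher then went from 35.4% to 66.6%, from 31.1% to 88.7%, from 45.6% to 69.3% (CagriSema against weight matching in liver), and from 48.8% to 10.6% (weight matching) and 37.5% to 55.6% (CagriSema against weight matching) in quadriceps. Under it Angptl6 turned to 0.088 with weight matching, and Gdf15, Angptl6 and Fetub turned to 0.043, 0.16 and 0.13 with CagriSema against vehicle. Without vehicle livers 4 and 6 these 4 values were 0.098, 0.48, 0.14 and 0.12. Leaving out 1 library, weight matching against vehicle ran from -0.33 to 0.42 for Angptl8, -0.19 to 0.15 for Angptl6 and -0.081 to 0.56 for Angptl4. CagriSema against vehicle ran from -0.087 to 0.15 for Inhbe, -0.11 to 0.19 for Angptl6, -0.13 to 0.085 for Fetub and -0.61 to 0.22 for Gdf15. CagriSema against weight matching ran from -0.028 to 0.16 for Angptl6 and -0.026 to 0.17 for Fgf21. The cause of these changes was not tested.

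Counts of genes called, all genes of a tissue, moved more. Leaving out 1 library gave 532 to 1207 (main value 892), 3 to 130 (45) and 27 to 335 (68) in liver and 46 to 645 (285), 0 to 7 (4) and 2 to 17 (16) in quadriceps, in the order weight matched against vehicle, CagriSema against vehicle, CagriSema against weight matched. Fits of 2 groups gave 414, 4 and 603 in liver and 7 and 2 in quadriceps for the comparisons with vehicle. DESeq2 gave 280 and 209 for the CagriSema comparisons in liver, and 693, 38 and 34 in quadriceps. No filter gave 13 and 45 for CagriSema in liver, 131 for weight matching and 7 for CagriSema against weight matching in quadriceps. Library totals gave 71 for CagriSema against vehicle in liver, and 492, 0 and 9 in quadriceps. Without vehicle livers 4 and 6, CagriSema gave 18 and 590 genes, the tissue differences 34 and 69, and pairs of hormone genes 0 in place of 1. In quadriceps, leaving out vehicle libraries 2 and 5 gave 19 and 0 against vehicle, leaving out vehicle library 2 and CagriSema library 40 gave 130 and 0, and leaving out vehicle library 8 gave 7 for CagriSema. The cause was not tested.

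Liver and quadriceps libraries share numbers in the labels. Deviations of 22 same-numbered pairs correlated from -0.0076 to 0.25, with 10 over 0.1, 1 below 0 and a median of 0.0942. Of the 22 livers, 13 correlated best with the muscle of their own number out of 23, a hint from the data that numbers may mark shared rats. The labels do not say so, and the number was no block in the fits reported. Those fits took all 46 libraries as independent, and they ignore a pairing if numbers mark rats. With the number as a replicate block, the tissue differences gave 283 genes (389 without), 10 (21) and 0 (3), and Angptl4 gave -1.07 ± 0.41 (adjusted p = 0.173) with weight matching and 1.09 ± 0.43 (adjusted p = 0.583) with CagriSema against weight matching. Low counts of Fgf21 and Gdf15 limit what liver can show, and counts at the floor do so for 7 genes in quadriceps.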

Other observations

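Angptl4 was compared between the liver and quadriceps libraries that carry the same number, a comparison chosen after the values were seen. Over 22 numbers, with log2 CPM centred on treatments, Pearson's r was 0.483 (permutation p = 0.0348) and Spearman's rho was 0.380 (permutation p = 0.103). Without the 2 farthest liver values r was 0.363, and without numbers 25 and 40 it was 0.206, so the relation rests on those libraries. Within treatments, r was -0.0369 over 7 vehicle, 0.541 over 8 weight-matched and 0.645 over 7 CagriSema numbers. The labels do not say that a number marks 1 rat.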
